A study of Mus musculus with 32 samples.

Results

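The genes described here are the cyclins of types A, B, D and E, the cyclin-dependent kinases (Cdks) and the genes with Cdc (cell division cycle) symbols of the mouse. They were taken by symbol from the protein-coding genes of the GENCODE M21 annotation: every gene whose symbol begins with Ccna, Ccnb, Ccnd or Ccne and a digit, or with Cdk or Cdc and a number. The rule gave 70 of the 21897 protein-coding genes, and no measured value entered it. They comprise 10 cyclins, 4 cell cycle Cdks, 7 Cdks known for roles in transcription, 8 other Cdks, 7 Cdk-associated proteins, 5 phosphatases, 8 genes of the anaphase-promoting complex (APC/C) and of ubiquitin transfer, 3 replication factors, 11 genes of the GTPase Cdc42 and its partners, 6 other Cdc genes, and Ccnb1ip1, which encodes a ubiquitin ligase of meiosis.

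All embryos came from in vitro fertilization of B6D2F1/J oocytes with B6D2F1/J sperm, and whole embryos were used for total RNA-seq. The mice were 6 to 8 weeks old. Zygotes, early 2-cell embryos and late 2-cell embryos came from cultures with DMSO or 10 µM A-485, an inhibitor of the acetyltransferase activity of CBP and p300, which was given from 4 to 20 hours post insemination (hpi). Zygotes precede the 2-cell stage, so their exposure may have been shorter than this window. The hour at which each stage was collected is not given in the labels. In a second experiment, late 2-cell embryos had been given DMSO or 50 nM trichostatin A (TSA), an inhibitor of histone deacetylases, from 8 to 28 hpi. Each of the 8 groups had 2 libraries, and the DMSO groups carry the solvent only. Titles of the zygote libraries and of the late 2-cell libraries of the A-485 experiment are written in another style. The early 2-cell libraries share the style of the TSA experiment. Whether the stages were processed together is not stated, so comparisons between stages may also hold a difference between rounds of work, which was not tested. The labels do not say whether the 2 libraries of a group came from separate collections of embryos, so the p-values measure the spread between libraries, which may be technical. The phase of the cell cycle was not measured in these libraries. In the paper, every embryo given A-485 from 4 to 20 hpi stopped developing at the 2-cell stage. TSA given from 8 to 28 hpi also led to arrest. Global H3K27ac, a histone acetylation mark, was back at the control level once A-485 had been washed off. Treated and control embryos thus differed in later fate, and the part of this in the results below was not tested.

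Cyclins bind Cdks and switch them on. D-type cyclins with Cdk4 and Cdk6 act in G1 phase, E-type cyclins with Cdk2 act at the entry into DNA replication, A-type cyclins act in replication and in the approach to mitosis, and B-type cyclins with Cdk1 drive mitosis. Cdc25 phosphatases remove inhibitory phosphates from Cdks, and Cdc20 directs the APC/C to destroy B-type cyclins. The mammalian oocyte stores RNA for much of this machinery. The stored RNA is cleared after fertilization, while the genome of the embryo is switched on in a minor wave around the first division and a major wave at the late 2-cell stage (zygotic genome activation, ZGA).

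Between 13206163 and 32585987 expected counts were listed per library. The 6 oocyte markers (such as Zp3 and Gdf9) were above 1 FPKM (fragments per kilobase of effective length, relative to all mapped fragments in that library) in every group. Among the markers of other cells, 1 of 8 cumulus, 1 or 2 of 7 sperm and testis, up to 1 of 5 fibroblast and up to 1 of 4 blood genes reached a mean of 1 FPKM in a group, and Prm2, a sperm protamine, was the one of its list found in all 8 groups. The summed level of the oocyte markers was 796 to 849 FPKM in late 2-cell A-485-treated libraries against 1280.2 to 1463 FPKM in their controls, and 727 to 736 against 1324 to 1333 FPKM for TSA. The fall of the sum was not shared by the whole list: with A-485 Dppa3 was down-regulated, Bmp15 was up-regulated and the median log2 fold change of the 6 genes was 0.36, and with TSA Dppa3 and Zp3 were down-regulated and the median was -0.20. Mitochondrial mRNA made up 5.43% and 5.35% of the counts in the late 2-cell A-485-treated libraries against 2.44% and 2.35% in their DMSO controls, and 3.66% and 3.72% against 2.71% and 2.39% for TSA. The summed level of the 4 2-cell markers (Zscan4c, Zscan4d, Zfp352 and Tcstv3) was 318 to 344 FPKM in DMSO-treated and 5.64 to 6.11 FPKM in A-485-treated early 2-cell embryos, 166 to 183 against 26.6 to 46.1 FPKM at late 2-cell, and 103 to 134 against 284 to 287 FPKM for TSA. The part of these shifts in the results below was not tested. Fold changes are relative to the other RNA of the same libraries (TMM scaling), and in whole-embryo libraries fewer cells with an RNA and less of it per cell cannot be told apart. Scaled to mitochondrial mRNA instead, the median gene above 1 FPKM moved from -0.11 to -1.09 (log2) for late 2-cell A-485 and from -0.15 to -1.48 from zygote to early 2-cell, so a change below is one relative to the bulk of the RNA. FPKM values carry the effective length and the library total, the fold changes only the TMM-scaled counts, so the ratio of FPKM values need not equal the fold change.

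In the DMSO-treated embryos, 60 members had a mean of at least 1 FPKM in zygotes, 63 at early 2-cell and 62 at late 2-cell. Only Cdc20b, Cdc42ep5 and Cdk18 stayed under 1 FPKM in all 8 groups. Ccnb1, the cyclin partner of Cdk1 in mitosis, was the highest member in DMSO-treated zygotes, with 455 and 462 FPKM, and Cdc42se2, a small effector of Cdc42, came next with 372 and 362 FPKM. Both levels lay far above the next member, the Cdc42-binding kinase Cdc42bpb, at 142 and 142 FPKM. At late 2-cell the order in the DMSO-treated embryos of the A-485 experiment had changed below Cdc42se2 (458 and 466 FPKM), with Cdk2ap1, which encodes a Cdk2-associated protein, followed by the cyclins Ccne1 and Ccnb1 and by Cdk1. The values of Cdk2ap1 (358 and 313 FPKM) and Ccne1 (315 and 294 FPKM) overlapped, so the order of this pair is not settled by 2 libraries. In the DMSO-treated embryos of the TSA experiment the order below Cdk2ap1 (352 and 349 FPKM) was another one, with Cdk1 at 295 and 304, Ccnb1 at 271 and 279 and Ccne1 at 279.9 and 260.4 FPKM. The D-type cyclins and Cdk4 and Cdk6 were low at each stage in DMSO: no D-type cyclin exceeded 15.1 FPKM and neither kinase exceeded 6.8 FPKM in any DMSO-treated library.

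From zygote to early 2-cell in DMSO, 8 of 66 members tested were up-regulated and 20 were down-regulated (adjusted p under 0.05, at least 2-fold, mean of at least 1 FPKM in either group), where 11.2% and 14.9% of all genes tested and 15.4% and 23.3% of the genes with a mean of at least 1 FPKM were. The members' shares were 12.1% and 30.3%. With the mitochondrial scaling the numbers were 6 and 43. Ccne1 rose from 6.26 and 3.26 FPKM in the zygote libraries to 65.9 and 61.1 FPKM (log2 fold change 3.99 ± 0.15, adjusted p = 2.45e-10; ± is the SE of the fit throughout). Cdc25c, the Cdc25 phosphatase known for mitotic entry, rose from 2.34 and 1.97 to 13.8 and 9.3 FPKM (log2 fold change 2.65 ± 0.26, adjusted p = 1.9e-06). Its relative Cdc25a, which acts earlier in the cycle, went the other way, from 59 and 60.6 to 8.35 and 8.46 FPKM (log2 fold change -2.71 ± 0.10, adjusted p = 1.65e-10). The zygote and early 2-cell libraries did not overlap for either phosphatase. Cdk5r1, an activator of Cdk5, rose from 0.04 and 0.08 to 6.08 and 7.89 FPKM and Cdk5 itself fell from 14.3 and 10.9 to 2.46 and 1.99 FPKM (log2 fold changes 5.90 and -2.10). The other members that rose were Cdc42ep4 (4.44 log2), Ccnd1 (3.78), Cdk2ap1 (2.55), Cdk9 (2.08) and Ccnd3 (1.40); under the mitochondrial scaling Cdk9 and Ccnd3 were no longer called. The 20 that fell included the meiotic cyclin Ccnb3 (-2.47 log2), Cdk5rap1 (-2.44) and Cdk5rap2 (-2.39), the transcription kinases Cdk11b (-2.36) and Cdk7 (-1.91), Cdk5rap3 (-1.94), the licensing factor Cdc6 (-1.82) and Ccnb1ip1 (-1.79), and Cdc37, a partner of the chaperone Hsp90, had a log2 fold change of -1.74.

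From early to late 2-cell in DMSO, 17 of 66 members tested were up-regulated and 9 were down-regulated, where 15.9% and 8.92% of all genes tested were. Among genes with a mean of at least 1 FPKM the shares were 24.3% and 13.4%, close to the 25.8% and 13.6% of the members. The cyclin Ccne1 reached 315 and 294 FPKM (log2 fold change 2.37 ± 0.11, adjusted p = 4.37e-08), Cdk1 rose from 55.8 and 55.2 to 231 and 226 FPKM (log2 fold change 2.32 ± 0.13, adjusted p = 1.13e-07), and Cdc20 rose from 12.5 and 8.79 to 58.6 and 71.9 FPKM (log2 fold change 2.76 ± 0.17, adjusted p = 1.64e-07). Both had been higher in zygotes: Cdc20 was 33.3 and 27.3 FPKM there and had fallen by early 2-cell (-1.58 log2), and Cdk1 was 113 and 99.5 FPKM, a difference from early 2-cell of under 2-fold (-0.67 log2). The largest rises were those of Cdc14b, a phosphatase that reverses Cdk phosphorylation (3.06 log2), the splicing factor Cdc5l (3.04), Cdk2ap1 (2.94), Cdc20 and Ccnb1ip1 (2.73), and Cdc25c, Cdk19 and Cdk10 rose by 2.22, 2.21 and 2.08 log2. Cdk2, the partner of E-type cyclins, rose from 12.6 and 10.8 to 26.9 and 31.9 FPKM (log2 fold change 1.29). The 9 that fell were Ccnb2 (-2.07), Cdc42ep3 (-2.04), Cdk5r2 (-1.78), Cdc25b (-1.74), Cdc34b (-1.72), Cdc42bpa (-1.62), Cdk15 (-1.41), Ccnd1 (-1.20) and Cdk17 (-1.15). Leaving out a single library ended 3 of these calls. Such a fit leaves a group with a single library, so a lost call does not show that it depended on the library left out. Without the second late 2-cell or the second early 2-cell library the adjusted p of Cdc42ep3 was 0.0865 and 0.0847, without the first late or the first early library that of Cdk15 was 0.172 and 0.256, and without the first late or the second early library that of Ccnd1 was 0.0901 and 0.106. Ccnb2 fell from 40.2 and 38.3 to 9.32 and 9.38 FPKM. Ccnb1 was lower at late 2-cell (257 and 253 FPKM) than at early 2-cell (411 and 429 FPKM), a change just under 2-fold (log2 fold change -0.96 ± 0.09, adjusted p = 5.11e-06). Between the DMSO-treated late 2-cell embryos of the TSA and A-485 experiments no member was called in either direction among 66 tested (1.19% and 0.136% of all genes were called higher and lower); at an unadjusted p under 0.05, 6 members were higher and 6 were lower in edgeR.

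**Figure D1:**
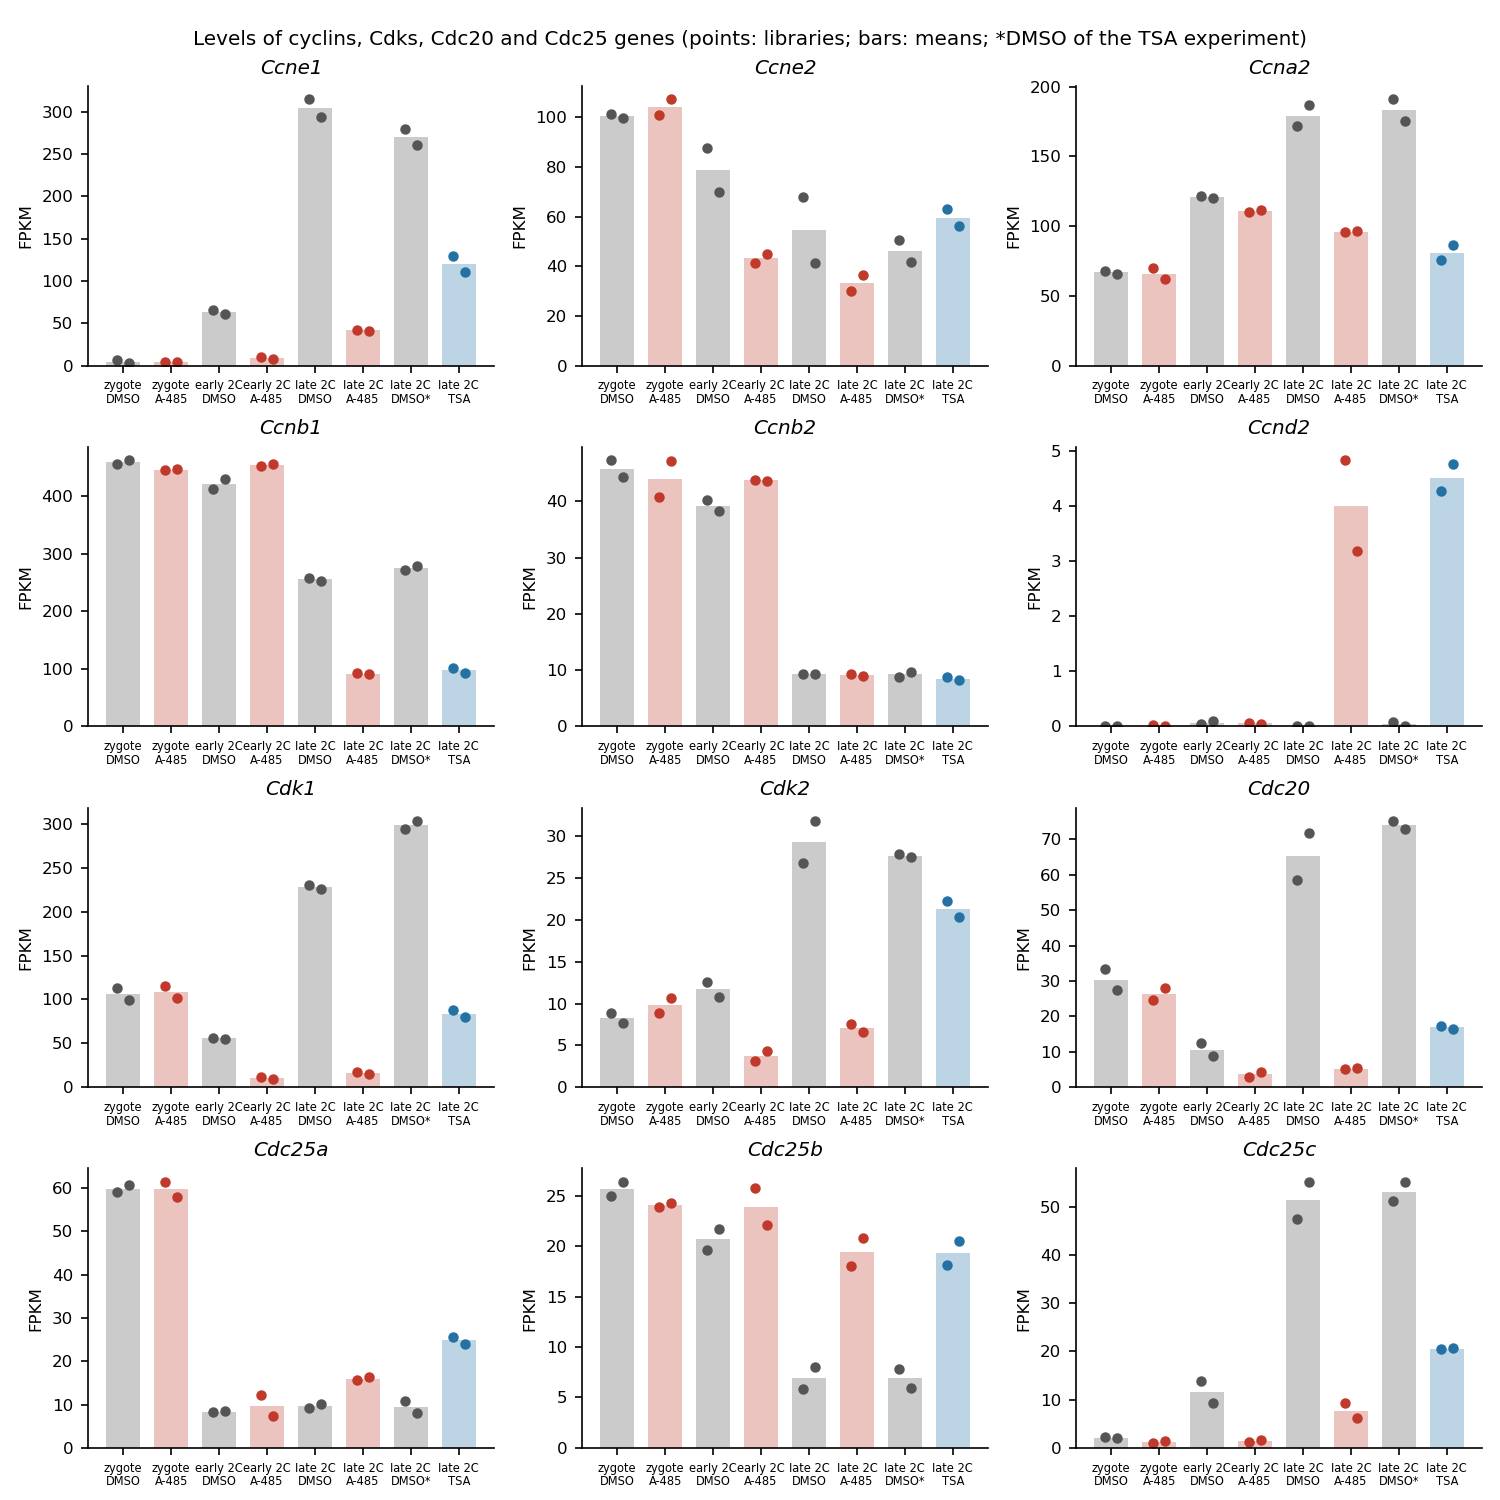
FPKM (linear axes from 0) of 12 cyclin, Cdk, Cdc20 and Cdc25 genes in the 8 groups; points are the 2 libraries of a group and bars their mean, grey for DMSO, red for A-485 and blue for TSA. Ccne1 and Cdc25c climb from zygote to late 2-cell in DMSO and stay lower with A-485, Ccnb2 lies close in treated and control embryos, and Ccnd2 is at most 0.1 FPKM in each library other than those of late 2-cell embryos given an inhibitor.

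In zygotes, no member was up- or down-regulated after A-485 treatment among 65 tested, where 0.00548% and 0.0657% of all genes were. At an unadjusted p under 0.05, edgeR gave 3 members higher (Cdk5rap3, Cdc5l and Ccne2) and 2 lower (Cdc42ep2 and Ccnb1ip1), the smallest adjusted p was 0.83, and DESeq2 called none either. Ccnb1 was 455 and 462 FPKM with DMSO and 446 and 446 FPKM with A-485, and Cdk1 was 113 and 99.5 FPKM with DMSO and 116 and 101 FPKM with A-485. Neither difference passed the test (log2 fold changes -0.04 and -0.06).

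At early 2-cell, 12 of 67 members tested were down-regulated after A-485 treatment and none was up-regulated. Of all genes tested, 7.9% were down-regulated and 0.402% up-regulated, and of the 12006 genes with a mean of at least 1 FPKM over the libraries 12.6% were down-regulated and 0.416% up-regulated. The 12 members were 17.9% of those tested. At an unadjusted p under 0.05, 7 members were higher and 17 were lower in edgeR, and DESeq2 also called no member up. The median log2 fold change of the members was -0.02, near 0. Ccne1, the partner of Cdk2 at the start of replication, was 65.9 and 61.1 FPKM in DMSO and 9.72 and 8.18 FPKM in A-485 (log2 fold change -2.74 ± 0.13, adjusted p = 2.49e-08). Cdk2 was 12.6 and 10.8 against 3.16 and 4.35 FPKM (log2 fold change -1.56 ± 0.22, adjusted p = 0.000309). Cdc6, which loads the replicative helicase onto origins, was 9.66 and 6.29 against 2.25 and 2.84 FPKM (log2 fold change -1.43 ± 0.24, adjusted p = 0.00158). For these replication genes every A-485-treated library lay below both controls. Ccne2, the second E-type cyclin, differed in the same direction but by under 2-fold and was not called, at 87.9 and 70.1 against 41.3 and 45.1 FPKM (log2 fold change -0.83 ± 0.11, adjusted p = 0.000177).

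Among the mitotic genes at early 2-cell, Cdc25c was 13.8 and 9.3 FPKM in DMSO and 1.26 and 1.59 FPKM in A-485 (log2 fold change -2.90 ± 0.26, adjusted p = 7.43e-06), and Cdc20 was 12.5 and 8.79 against 2.94 and 4.24 FPKM (log2 fold change -1.39 ± 0.25, adjusted p = 0.00245). The rise of Cdc25c seen between DMSO-treated zygotes (2.34 and 1.97 FPKM) and early 2-cell embryos was absent from both A-485-treated libraries. The cyclins of mitosis were not called: Ccnb1 was 411 and 429 against 452 and 455 FPKM (log2 fold change 0.18 ± 0.06, adjusted p = 0.0773), Ccnb2 was 40.2 and 38.3 against 43.9 and 43.6 FPKM (log2 fold change 0.18), and Ccna2, the A-type cyclin of somatic cycles, 122 and 120.3 against 110.1 and 112 FPKM (-0.09). Cdc25a and Cdc25b, with 12.2 and 7.26 FPKM and 25.8 and 22.1 FPKM in A-485, had log2 fold changes of -0.15 and 0.35 and were not called. The member with the largest fall was Cdc42ep4, an effector of Cdc42 of the Borg family, at 5.38 and 5.4 FPKM in DMSO and 0.21 and 0.12 FPKM in A-485 (log2 fold change -5.17 ± 0.34, adjusted p = 4.49e-07). Ccnd1 was 3.69 and 6.53 against 1.01 and 0.95 FPKM (log2 fold change -2.62 ± 0.29, adjusted p = 5.55e-05), Cdk5r1 6.08 and 7.89 against 2.18 and 0.64 FPKM (log2 fold change -2.23 ± 0.27, adjusted p = 9.21e-05) and Cdk2ap1 49.7 and 31 against 7.89 and 7.81 FPKM (log2 fold change -2.18 ± 0.23, adjusted p = 3.08e-05). The remaining 3 calls were Cdk9, the kinase that releases paused RNA polymerase II (-1.15 log2), Cdc5l (-1.42) and Cdk1.

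The Cdk1 values carried a second difference. RSEM divides the count of a gene by an effective length that averages its transcripts by their estimated abundance, and the effective length of Cdk1 was 583 and 572 bases in the early 2-cell DMSO libraries and 1153 and 1472 bases after A-485. At late 2-cell it was 663 and 738 bases with DMSO and 2040 and 1790 bases with A-485, while with TSA it was 594 and 576 bases against 690 and 658 bases in its controls. The estimate was longer in each A-485-treated 2-cell library than in the other 12 libraries, zygotes with A-485 included (479 and 479 bases). The annotation lists 7 Cdk1 transcripts, from 378 to 4375 bases, of which 4 are retained-intron models. The expected counts of Cdk1 fell at early 2-cell from 699 and 692 to 285 and 341 (log2 fold change -1.23 ± 0.16, adjusted p = 0.000238), while its FPKM, which also carries the length, went from 55.8 and 55.2 to 11 and 9.71. At late 2-cell the counts went from 3530 and 3209 to 478 and 408 (log2 fold change -2.52 ± 0.17, adjusted p = 2.18e-07) and the FPKM from 231 and 226 to 17.8 and 15.3. The counts of the gene thus gave a smaller fall than its FPKM at both stages. Among the members with a mean of at least 1 FPKM, Cdk1 was the one member of 63 whose effective length was at least 1.5 times longer after A-485 with no overlap at early 2-cell, and at late 2-cell Cdk1, Cdc26 and Cdk4 of 63 were longer and Ccnd1, Cdk10 and Cdk15 shorter. Of all genes with a mean of at least 1 FPKM, 2.67% were longer and 1.92% shorter by this rule in the early 2-cell comparison; late 2-cell embryos gave 4.36% and 4.73%, so these numbers of members are near the background. Transcript-level values were not analysed here.

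**Figure D2:**
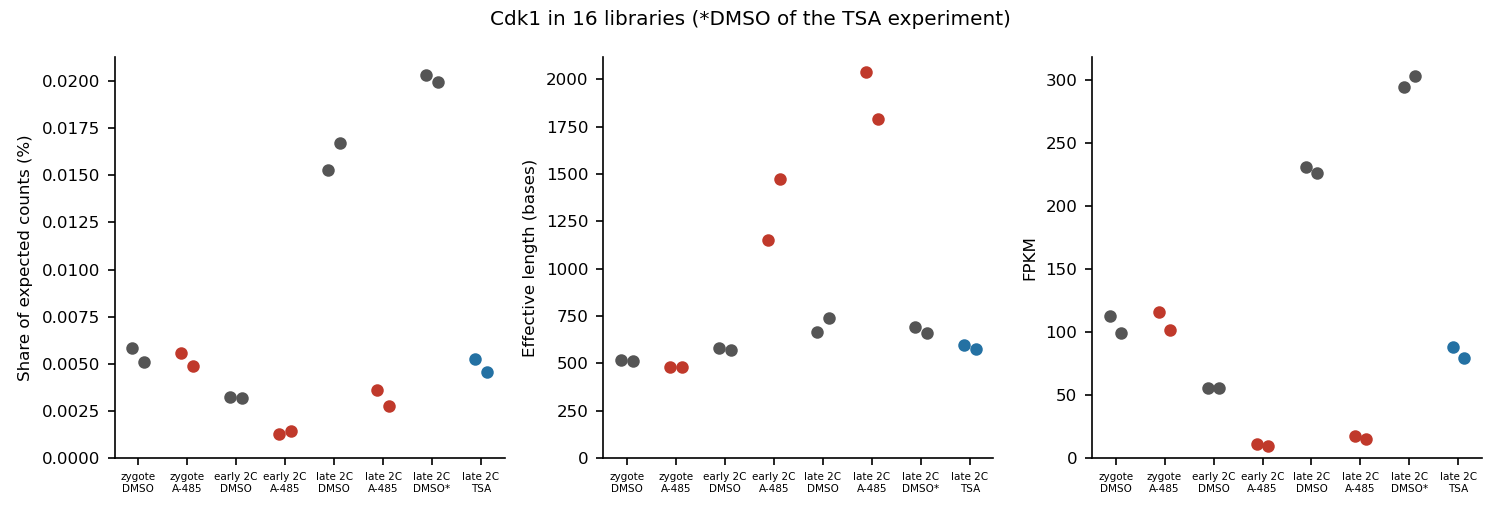
Cdk1 in the 16 libraries, shown as the percentage of all expected counts, RSEM effective length in bases and FPKM (linear axes from 0; points are libraries, grey DMSO, red A-485, blue TSA). The 4 A-485-treated 2-cell libraries have effective lengths of 1153 to 2040 bases, above the 479 to 738 bases of the others.

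At late 2-cell, 21 of 67 members tested were down-regulated and 5 were up-regulated after A-485 treatment, where 16.8% and 10.5% of all genes tested were, and 26.4% and 12.5% of the 14152 genes with a mean of at least 1 FPKM. The members' shares were 31.3% and 7.46%. Scaled to mitochondrial mRNA, the numbers of members were 39 and 1. The median of the members was -0.60 log2, against -0.11 for all genes above 1 FPKM. Cdc20 and Cdk2ap1 had the lowest fold changes, which differed by less than their SEs. Cdc20 went from 58.6 and 71.9 FPKM in DMSO to 5 and 5.38 FPKM in A-485 (log2 fold change -4.17 ± 0.23, adjusted p = 4.77e-08). Cdk2ap1 went from 358 and 313 to 20.6 and 14.3 FPKM (log2 fold change -4.14 ± 0.16, adjusted p = 7.4e-09), and Cdc45, a component of the replicative helicase, from 52 and 61 to 7.07 and 7.73 FPKM (log2 fold change -3.35 ± 0.18, adjusted p = 4.77e-08). These 3 genes lay more than 5-fold apart between the groups, with no overlap. Ccne1 was 315 and 294 FPKM against 42.6 and 41.1 FPKM (log2 fold change -3.32 ± 0.12, adjusted p = 5.07e-09), and the A-485-treated values also lay below those of DMSO-treated early 2-cell embryos (65.9 and 61.1 FPKM), a comparison that was not tested. Cdc25c was 47.5 and 55.1 against 9.23 and 6.22 FPKM (log2 fold change -2.84 ± 0.23, adjusted p = 1.04e-06), and Cdk2 26.9 and 31.9 against 7.59 and 6.54 FPKM (log2 fold change -2.16 ± 0.19, adjusted p = 2.99e-06).

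Of the 10 cyclins 3 were down-regulated and 1 was up-regulated by A-485 at late 2-cell. Ccnb1 and Ccna2, which had not been called at early 2-cell, were among those down-regulated. Ccnb1 was 257 and 253 FPKM in DMSO and 92.1 and 91 FPKM in A-485 (log2 fold change -1.45 ± 0.11, adjusted p = 7.61e-07), and Ccna2 was 172 and 187 against 95.5 and 96.7 FPKM (log2 fold change -1.24 ± 0.11, adjusted p = 1.92e-06). The effect of A-485 on both differed between the stages when the difference itself was tested (late minus early, -1.55 log2 with an adjusted p of 1.03e-09 for Ccnb1 and -1.07 log2 with 1.32e-06 for Ccna2), although with library totals in place of TMM the difference of Ccna2 was -0.94. Ccnb2 was 9.32 and 9.38 against 9.35 and 8.94 FPKM (log2 fold change -0.24 ± 0.28, adjusted p = 0.537) and was not called. Ccne2, at 67.8 and 41.55 against 30.05 and 36.62 FPKM, was not called either. Of the 7 Cdks known for roles in transcription, 4 (57.1%) were down-regulated, against 26.4% of all genes with a mean of at least 1 FPKM. Of the 3 replication factors 2 (66.7%) were also down-regulated, as were 2 of the 4 cell cycle Cdks (50%). None of the 7 other Cdks tested was down-regulated and 1 was up-regulated, and 2 of 10 genes of Cdc42 and its partners were down-regulated. The 4 transcription Cdks were Cdk9 (106 and 126 against 11.5 and 13.4 FPKM, log2 fold change -3.17), Cdk11b (73.6 and 84 against 8.46 and 22.3 FPKM, -2.84), Cdk12 (-1.39) and Cdk19 (-1.15). Cdk8, the Mediator kinase related to Cdk19, was not called, at 125 and 108 FPKM in DMSO and 189.9 and 161 FPKM in A-485 (log2 fold change 0.31 ± 0.11, adjusted p = 0.0408), and nor were the other two. The other down-regulated members included Cdc42ep4 (-3.55 log2), Cdc14b (-2.06) and the APC/C subunit Cdc23 (-1.80), and the remaining ones were Cdc37, Cdc5l, Cdc6, Cdc42ep2 and Ccnb1ip1, between -1.78 and -1.12 log2.

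The 5 up-regulated members were Ccnd2, Cdk15, Cdk6, Cdc14a and Cdc25b. Ccnd2, a D-type cyclin, had 295 and 208 counts in the 2 A-485-treated libraries and 1 and 1 in their controls, a ratio of 378 per library total with a 95% exact interval of 104 to 3130 (for counting error only, since PCR copies are not separate molecules). Its level was 4.83 and 3.18 FPKM, still low beside the 21.7 and 16.3 FPKM of Ccnd3. Ccna1, the germ line A-type cyclin, had 10 and 10 counts against 0 and 0, and was not called (adjusted p = 0.0608). Cdc25b fell from 19.7 and 21.7 FPKM at early 2-cell to 5.82 and 8.01 FPKM at late 2-cell with DMSO, while with A-485 it was 18 and 20.8 FPKM at late 2-cell (log2 fold change 1.08 ± 0.21, adjusted p = 0.00173). The remaining 3 were at low levels: Cdk15 (0.57 and 1.14 against 7.24 and 3.81 FPKM, log2 fold change 1.62), Cdk6 (1.12 and 1.78 against 2.44 and 6.17 FPKM, 1.25) and Cdc14a (2.76 and 4.81 against 7.84 and 7.25 FPKM, 1.19). The effective length of Cdk15 was shorter with A-485, which raises its FPKM beside its counts. Without the first DMSO-treated library the calls of Cdk15 (adjusted p = 0.15) and Cdk6 (adjusted p = 0.0886) were lost and 3 members were up-regulated, without the first or second A-485-treated library the adjusted p of Cdk15 was 0.0574 and 0.0938, and with mitochondrial scaling Ccnd2 alone was called.

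Of the 12 members down-regulated at early 2-cell, 10 were also down-regulated at late 2-cell (83.3% of the early and 47.6% of the 21 late calls), which for all genes tested was 74.1% and 32% of the calls. The exceptions were Ccnd1 and Cdk5r1. The early and late comparisons have no library in common. Ccnd1 was 1.46 and 2.98 FPKM in DMSO and 6.81 and 3.72 FPKM in A-485 at late 2-cell, where counts gave a log2 fold change of -0.13 (adjusted p = 0.843) and the effective length differed between the groups. The effect of A-485 differed between late and early 2-cell for 18 of 68 members tested, 5 towards a higher and 13 towards a lower value at late 2-cell, where 8.39% and 7.46% of all genes tested and 11.1% and 13.6% of those with a mean of at least 1 FPKM did so; with mitochondrial scaling it differed for 2 and 35. The largest differences towards a lower value were those of Cdc45 (difference of log2 fold changes -2.72 ± 0.23, adjusted p = 2.85e-09), Cdc20 (difference of log2 fold changes -2.70 ± 0.31, adjusted p = 3.1e-07) and Cdk11b (difference of log2 fold changes -2.67 ± 0.22, adjusted p = 1.95e-09).

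**Figure D3:**
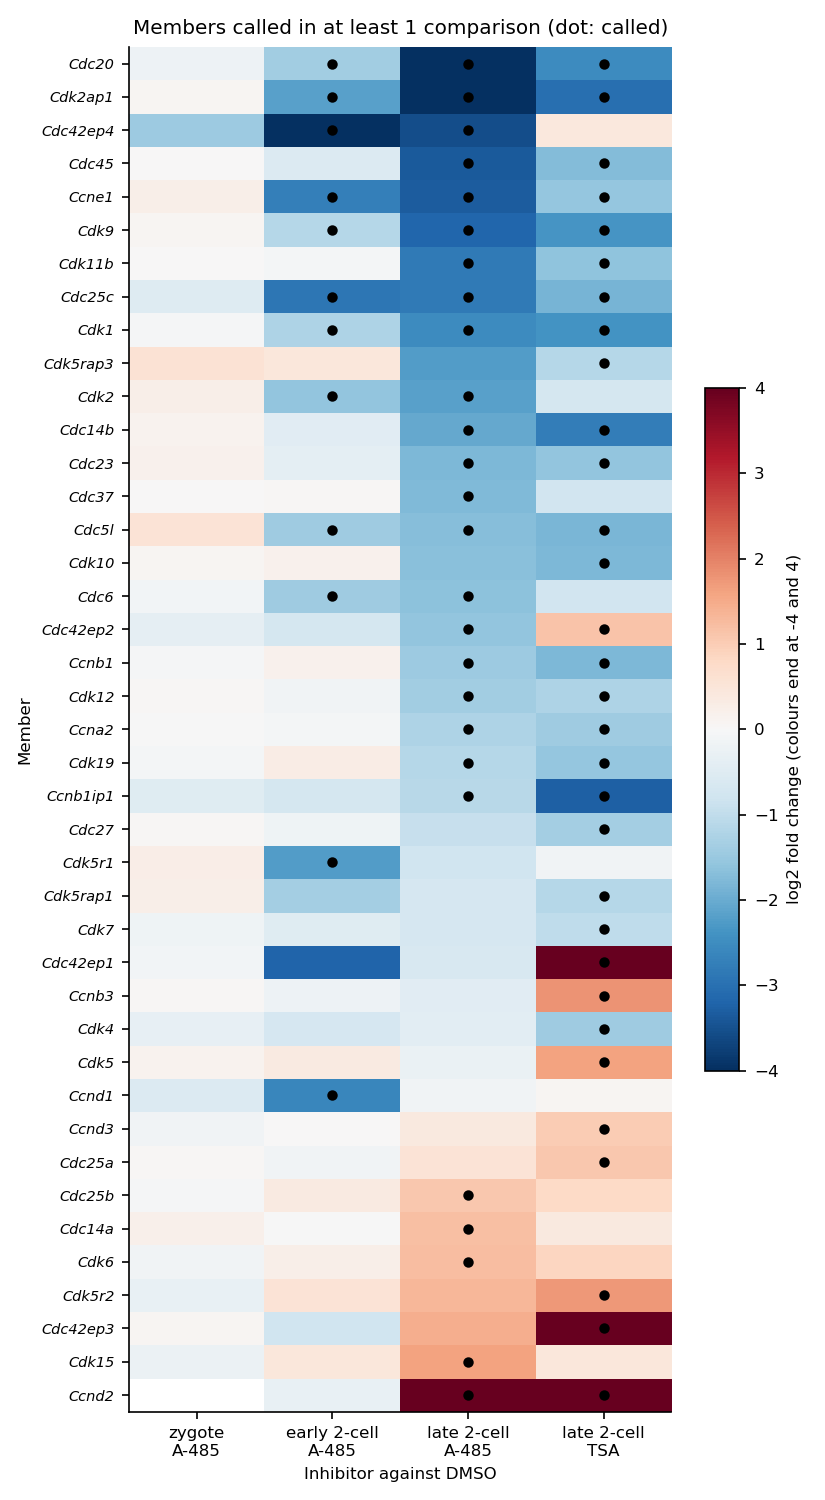
Log2 fold changes of inhibitor against DMSO (colour, ending at -4 and 4) for each member called in at least 1 of 4 comparisons (columns), ordered by the late 2-cell A-485 value; dots mark calls and the white Ccnd2 cell at zygote was not tested. No dot stands in the zygote column, and 16 members have a dot in the blue of both late 2-cell columns.

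After TSA treatment, 22 of 68 members tested were down-regulated and 9 were up-regulated at late 2-cell, where 13.9% and 13.8% of all genes tested were, and 21.6% and 17.8% of the 14653 genes with a mean of at least 1 FPKM. The members' shares were 32.4% and 13.2%. Scaled to library totals the numbers of members were 18 and 12, and scaled to mitochondrial mRNA they were 24 and 6. Cdk1 was 295 and 304 FPKM in DMSO and 88.3 and 79.5 FPKM in TSA (log2 fold change -2.39 ± 0.09, adjusted p = 1.49e-08), Cdc20 was 75.2 and 72.9 against 17.4 and 16.5 FPKM (log2 fold change -2.52 ± 0.10, adjusted p = 1.69e-08), and Ccne1 was 279.9 and 260.4 against 129 and 111 FPKM (log2 fold change -1.56 ± 0.08, adjusted p = 9.18e-08). Each TSA-treated library lay below both controls for these genes. Ccnb1 and Ccna2 were 102 and 93.2 FPKM and 75.8 and 86.4 FPKM in TSA (log2 fold changes -1.81 and -1.43). Ccne2 was 50.65 and 41.96 FPKM in DMSO and 63.14 and 56.21 FPKM in TSA and was not called. Of the 7 transcription Cdks, 5 (71.4%, against the 21.6% above) were down-regulated, namely Cdk9 (-2.36), Cdk11b (-1.62), Cdk19 (-1.55), Cdk12 (-1.25) and Cdk7, the kinase of the general factor TFIIH that also activates other Cdks (-1.02). Of the 11 genes of Cdc42 and its partners none was down-regulated and 3 were up-regulated. The largest falls were those of Ccnb1ip1 (-3.26 log2), Cdk2ap1 (-3.01) and Cdc14b (-2.76). Cdc25c (-1.85), Cdc5l (-1.82) and Cdk10 (-1.79) were also down-regulated. The APC/C subunits Cdc23 and Cdc27 were down-regulated (-1.56 and -1.36), as was Cdk4 (5.04 and 4.87 against 3.67 and 3.74 FPKM, log2 fold change -1.43 ± 0.30, adjusted p = 0.0026), whose effective length was shorter with TSA.

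The 9 members up-regulated by TSA were Ccnd2, Ccnd3 and Ccnb3 among the cyclins, Cdk5 and its activator Cdk5r2, Cdc25a, and the Borg family genes Cdc42ep1, Cdc42ep2 and Cdc42ep3. Ccnd2 had 482 and 328 counts in TSA-treated and 2 and 1 in DMSO-treated libraries, a ratio of 362 with an exact interval of 123 to 1760, and 4.26 and 4.76 FPKM after TSA. Cdc42ep3 was 0.26 and 0.34 FPKM in DMSO and 15.2 and 11.2 FPKM in TSA (log2 fold change 4.84 ± 0.34, adjusted p = 9.45e-07), and Cdc42ep1 was 0.42 and 0.1 against 6.01 and 5.8 FPKM (log2 fold change 4.11 ± 0.47, adjusted p = 3.72e-05). Both genes lay above their controls in each TSA-treated library. Ccnb3, which had fallen after the zygote, was 3.34 and 4.07 against 17 and 15.2 FPKM (log2 fold change 1.78 ± 0.14, adjusted p = 2.04e-06). Cdc25a was 10.8 and 8.08 against 25.6 and 24 FPKM (log2 fold change 1.08 ± 0.13, adjusted p = 4.87e-05), and Ccnd3 9.22 and 9 against 27.4 and 22 FPKM (log2 fold change 1.02 ± 0.14, adjusted p = 0.000168). Without the first TSA-treated or the second DMSO-treated library the changes were under 2-fold, at 0.96 and 0.98 log2 for Cdc25a and 0.92 and 0.99 log2 for Ccnd3. Cdk5r2, Cdk5 and Cdc42ep2 had log2 fold changes of 1.74, 1.62 and 1.14.

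The A-485 and TSA experiments have separate controls, and inhibitor, treatment window and experiment differ together between them. Of the 21 members down-regulated by A-485 at late 2-cell and the 22 by TSA, 16 were the same genes (76.2% and 72.7%), and for all genes the shared calls were 62.8% and 73.9%. Of the 5 and 9 up-regulated members 1, Ccnd2, was shared (20% and 11.1%), and for all genes the shares were 32.4% and 24.1%. In the test of the difference itself, the effects of A-485 and TSA differed for 15 of 69 members, with 14 lower under A-485 (20.3%) and 1, Ccnb1ip1, higher, where 11% and 2.98% of all genes tested and 18.2% and 3.71% of those with a mean of at least 1 FPKM were; with mitochondrial scaling 23 were lower and 1 was higher. The largest differences lay among the partners of Cdc42: Cdc42ep1 (difference of log2 fold changes -4.87 ± 0.78, adjusted p = 0.000198), Cdc42ep4 (difference of log2 fold changes -4.09 ± 0.27, adjusted p = 6.68e-09), Cdc42ep3 (difference of log2 fold changes -3.51 ± 0.71, adjusted p = 0.00171) and Cdc42ep2 (difference of log2 fold changes -2.82 ± 0.39, adjusted p = 4.19e-05). Without the first DMSO-treated library of the A-485 experiment the adjusted p of Cdc42ep3 was 0.0614. Cdc42ep4 was 10.2 and 12.4 FPKM in DMSO and 0.93 and 1.14 FPKM in A-485, but 11.3 and 11.2 FPKM in the controls of TSA and 18 and 20.5 FPKM in TSA. Of the GTPase itself, Cdc42 RNA was 27.8 and 29.3 against 28.2 and 31.2 FPKM with A-485 and 27.7 and 29.5 against 19.5 and 17.2 FPKM with TSA. Ccne1, Cdk2 and Cdc25c were lower under A-485 than under TSA (-1.88, -1.56 and -1.09 log2). For Ccnb1, Ccna2 and Cdk1 the differences between the inhibitors were not called, at 0.25 ± 0.13, 0.08 ± 0.13 and -0.24 ± 0.18 log2.

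**Figure D4:**
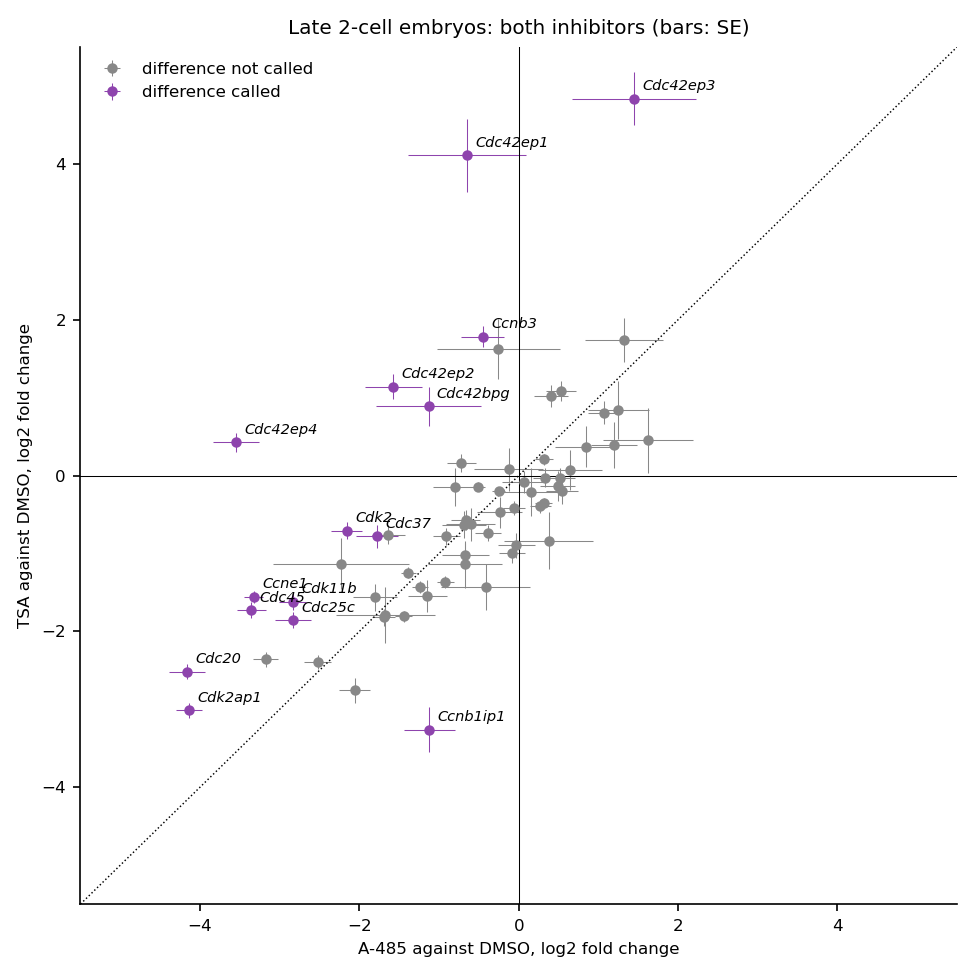
Log2 fold change after TSA (vertical) against that after A-485 (horizontal) at late 2-cell for 65 members tested in both, with SE bars; purple and named where the difference between the inhibitors was called, and Ccnd2 (8.20 and 8.03) lies outside the axes. Cdc42ep1, Cdc42ep2, Cdc42ep3 and Cdc42ep4 stand far above the diagonal, which marks equal effects.

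The rise in DMSO and the inhibitor effects can be set side by side on separate libraries. With the DMSO-treated late 2-cell embryos of the TSA experiment as the end point, 21 members rose from early to late 2-cell, and 17 of them (81%) were down-regulated by A-485 in the other experiment, where 67.2% of all 3987 rising genes tested were. The 4 exceptions were Cdk4, Cdk5rap3, Cdk7 and Cdk10. With the controls of the A-485 experiment as the end point, 17 members rose, and 14 of them (82.4%) were down-regulated by TSA, where 67.6% of all 3236 rising genes were. Cdc6, Cdk2 and Cdc42ep4 were the exceptions here, at -0.76, -0.71 and 0.43 log2. None of the members that fell in DMSO was down-regulated by either inhibitor, of 10 for A-485 and 9 for TSA; 3 of the 10 (30%, Cdk15, Cdc25b and Cdk6) were up-regulated by A-485 and 2 of the 9 (22.2%, Cdc42ep3 and Cdk5r2) by TSA. These shares are near those of all falling genes tested, of which 4.01% were down- and 22.2% up-regulated by A-485, and 0.995% and 18.6% by TSA.

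The other cell cycle genes were 92 in 5 lists: Cdk inhibitors, mitotic kinases and checkpoint genes, APC/C and SCF ubiquitin ligase genes, other cyclins, and RB and E2F genes. The list of other cyclins also holds Mnat1, which is not a cyclin. Of the 92 genes, none was called in zygotes with A-485, and none was up and 10 were down at early 2-cell. At late 2-cell 10 were up and 30 down with A-485, and 7 were up and 25 down with TSA. As shares, 10.9%, 32.6% and 27.2% were down, near the 12.6%, 26.4% and 21.6% of all genes with a mean of at least 1 FPKM in these comparisons, and 10.9% and 7.61% were up at late 2-cell with A-485 and TSA against 12.5% and 17.8%. At early 2-cell the largest falls were those of the cyclin J-like gene Ccnjl (-4.69 log2) and of the Cdk inhibitor genes Cdkn3 (-3.05) and Cdkn2d (-2.43). At late 2-cell with A-485 they were the APC/C subunit Anapc7 (-3.72), the ubiquitin-conjugating enzyme of the APC/C Ube2c (-3.44) and cyclin F, Ccnf (-3.09), while the Cdk4 and Cdk6 inhibitor Cdkn2a rose (2.80). With TSA they were Anapc11 (-3.27), Anapc7 (-2.70) and the mitotic kinase Plk1 (-2.60), and the Cdk inhibitor Cdkn1c rose most (4.07). The list of APC/C and SCF genes had 8 of 24 down with A-485 at late 2-cell (33.3%) and 7 of 24 with TSA (29.2%), and the list of other cyclins 9 of 19 (47.4%) with each. The list of mitotic kinases and checkpoint genes had 8 of 22 (36.4%) and 7 of 22 (31.8%) down. The lists were not alike: of the 19 RB and E2F genes 2 (10.5%) were down with each inhibitor, and 4 (21.1%) were up with A-485 and 2 with TSA. Of the 8 Cdk inhibitors 3 were down and 2 up with A-485, and none was down and 3 were up with TSA. From zygote to early 2-cell in DMSO 11 of these genes were up and 24 down, and from early to late 2-cell 23 were up and 16 down (12% and 26.1%, then 25% and 17.4%, against 15.4% and 23.3%, then 24.3% and 13.4% of those genes).

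Open chromatin had been mapped by ATAC-seq in embryos of the late 1-cell and the early 2-cell stage, as 1 pooled list of peaks per stage and treatment, so these counts have no spread between replicates. A peak within 1 kb of a start site was listed for 32 of the 70 members (45.7%) in DMSO-treated late 1-cell embryos and for 43 (61.4%) at early 2-cell, against 26.2% and 31.8% of all protein-coding genes. Most members had a mean of at least 1 FPKM, while all protein-coding genes include many under it. Shares among genes above 1 FPKM were not computed, so whether the members exceed those genes was not tested. In the A-485 lists the members numbered 32 (45.7%) and 49 (70%), against 24.7% and 41.0% of all genes, although the early 2-cell A-485 list holds fewer peaks in all (13712 against 27693). Of the 43 members with an early 2-cell DMSO peak, 6 (14.0%) had none in the A-485 list, against 18.2% of all such genes, and they were Cdc14b, Cdc16, Cdc20, Cdc23, Cdc42 and Cdk2ap1. Conversely, 12 of the 49 members with an A-485 peak (24.5%) had none in the DMSO list, against 36.6% of all such genes. Of the 12 members whose RNA fell at early 2-cell, 6 had a promoter peak in both early 2-cell lists: Ccne1 had 28.9 -log10 q in DMSO and 49.6 in A-485, Cdk1 46.4 and 33.3, Cdk2 13.8 and 23.6, Cdc6 70.7 and 39.2 and Cdc5l 96.2 and 75.7, and Cdc25c 77.2 and 63.2. Each value comes from 1 pooled list, so they are not compared. Cdk9 and Cdc42ep4 had one in the A-485 list only, Cdc20 (48.4) and Cdk2ap1 (25.3) in the DMSO list only, and Ccnd1 and Cdk5r1 in none of the 4. Ccnd2 also had none. A peak near a start site may belong to a neighbouring gene.

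**Figure D5:**
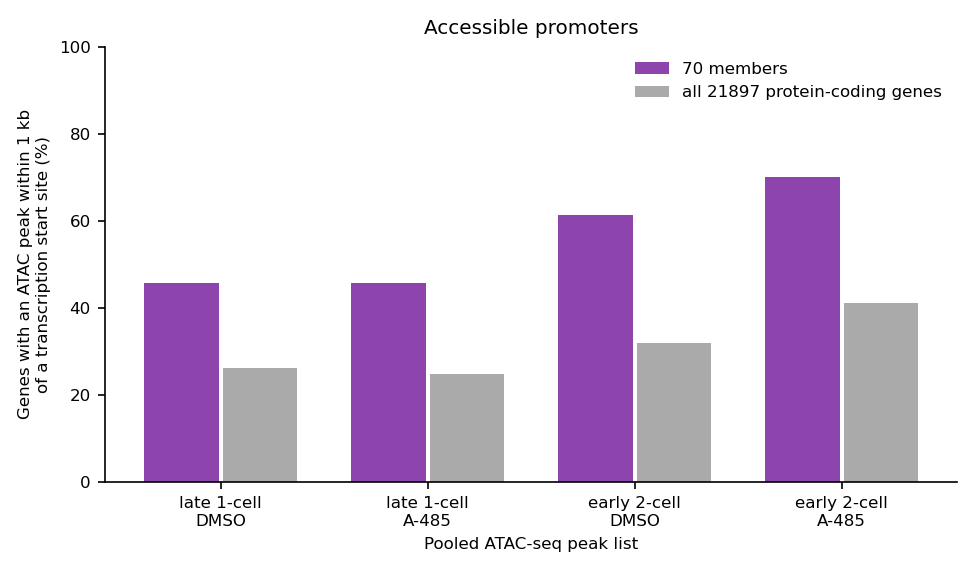
Share of genes (percent, axis from 0 to 100) with an ATAC-seq peak within 1 kb of a start site in the 4 pooled peak lists, for the 70 members (purple) and for all 21897 protein-coding genes (grey). The members stand higher in each list, the grey bars include genes under 1 FPKM, and no error bar is drawn because each list pools its replicates.

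The promoters below are a selection. The RNA of 5 of these genes fell with A-485 at early 2-cell (Cdk1, Cdk2, Cdc6, Cdc20 and Ccne1), while that of Ccnb1 and Cdc25a was not called at that stage and both had peaks in all 4 ATAC lists. The other members that fell at that stage are not shown. Each line gives the 150 bases before the RefSeq start (GRCm38.p6, 5′ to 3′ on the strand of the gene, directly upstream of the first exon of a RefSeq transcript of the named gene). Capitals mark 3 cell cycle motifs searched on both strands: the CCAAT box (CCAAT), the cell cycle genes homology region or CHR (TTTGAA), and the E2F site (TTTGGCGC, TTTCGCGC or TTTCCCGC).
Cdk1, chr10:69352913-69353062 (-): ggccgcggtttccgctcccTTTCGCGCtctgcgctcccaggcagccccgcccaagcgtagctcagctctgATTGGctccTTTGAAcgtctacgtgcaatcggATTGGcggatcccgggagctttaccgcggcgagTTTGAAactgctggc
Cdk2, chr10:128705052-128705201 (-): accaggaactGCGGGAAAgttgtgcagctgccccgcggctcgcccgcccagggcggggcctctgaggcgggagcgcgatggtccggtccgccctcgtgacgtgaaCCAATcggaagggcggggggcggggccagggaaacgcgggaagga
Cdc6, chr11:98908001-98908150 (+): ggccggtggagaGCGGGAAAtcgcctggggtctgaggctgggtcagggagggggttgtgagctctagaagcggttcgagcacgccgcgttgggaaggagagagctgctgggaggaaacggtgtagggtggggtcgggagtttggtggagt
Cdc20, chr4:118437344-118437493 (-): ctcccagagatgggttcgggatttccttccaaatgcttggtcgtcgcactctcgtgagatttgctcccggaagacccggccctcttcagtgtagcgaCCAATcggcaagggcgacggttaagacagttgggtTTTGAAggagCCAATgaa
Ccne1, chr7:38107491-38107640 (-): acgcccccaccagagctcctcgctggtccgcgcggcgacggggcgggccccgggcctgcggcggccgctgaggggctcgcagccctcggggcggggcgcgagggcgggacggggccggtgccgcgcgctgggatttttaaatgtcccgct
Ccnb1, chr13:100786487-100786636 (-): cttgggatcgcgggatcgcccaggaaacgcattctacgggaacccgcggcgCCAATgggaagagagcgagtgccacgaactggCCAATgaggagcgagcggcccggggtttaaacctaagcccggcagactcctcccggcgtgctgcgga
Cdc25a, chr9:109875429-109875578 (+): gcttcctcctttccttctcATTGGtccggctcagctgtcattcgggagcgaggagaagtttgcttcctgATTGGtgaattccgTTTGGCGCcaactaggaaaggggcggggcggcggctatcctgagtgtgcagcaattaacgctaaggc
The Cdk1 window held all 3 motifs, the Cdc20 window the CCAAT box and CHR, those of Cdk2 and Cdc25a the E2F site and the CCAAT box, that of Cdc6 the E2F site, that of Ccnb1 the CCAAT box and that of Ccne1 none of these letters. Among the members that fell and are not shown, Cdk9 and Cdk2ap1 held no motif in such a window and Cdc5l held a CCAAT box. In the 250 bases before the start Cdk9 and Cdk2ap1 each held a CCAAT box. No promoter sequence was available for Ccnd1, Cdc25c and Cdk5r1. For Cdc42ep4 the window of the first start held none and that of the second a CCAAT box and a CHR. The table of promoters held 58 of the 70 members with 68 start sites. In the 250 bases before the start, 39.7% of the members' promoters held a CCAAT box, against 33.8% of all 32851 promoters, 19.1% held a CHR against 16%, and 4 (5.88%, those of Cdk1, Cdk2, Cdc6 and Cdc25a) held an E2F site against 1.53%. All 4 promoters with an E2F site are among those shown, so the windows shown do not represent the members as a whole. RefSeq and GENCODE M21 starts differ for some genes, and the ATAC peaks were counted from the GENCODE starts. The whole Cdc6 window, with its E2F site, lies inside the gene as GENCODE annotates it, and the windows of Cdk1, Cdc20, Ccne1 and Ccnb1 do so in part. These are matches of letters, with no measurement of binding.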

How the data were processed

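Total RNA-seq (SMART-Seq Stranded kit) gave 16 libraries, and ATAC-seq gave 4 pooled peak lists. Per the study's methods and the labels, the authors trimmed reads with Trimmomatic 0.39, mapped them to GRCm38 with STAR 2.7.8a and deposited RSEM 1.3.1 expected counts, which are not normalized, FPKM values scaled by the authors to effective length and mapped fragments, and, as other values, effective lengths in bases and posterior SDs of the counts. The posterior SD, a measure of reads shared between genes, exceeded 1% of the count in any library for 6 members and reached 5.89% for Cdk2ap1. The deposited ATAC-seq peak lists hold the authors' score of reproducibility, the fold enrichment as a signal, and -log10 q values from the ENCODE pipeline (their -log10 p values were not used).

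Each library was assigned by its own label, and the late 2-cell DMSO groups were paired with A-485 or TSA by the spelling of their titles. Gene identifiers were matched to GENCODE M21 without version numbers (55144 of 55385 matched). Expected counts were rounded and tested with edgeR 4.0.16 (R 4.3.3; glmQLFit and glmQLFTest, TMM, genes whose counts over the compared libraries summed to 10 or more, Benjamini-Hochberg over all genes tested). The SE is the size of the log2 fold change divided by the square root of F. Members were called at an adjusted p below 0.05 with a change of at least 2-fold and a mean of 1 FPKM in either group, and an interaction call needed an adjusted p under 0.05 and a difference of 1 log2. Low counts (1 to 3) were compared as a ratio with an exact interval. Peaks within 1 kb of any annotated start counted for a gene. In data simulated from the late 2-cell A-485 libraries (21675 genes), with dispersions from the fitted trend, the test recovered 68 of 100 genes changed 4-fold and 37 of 100 changed 2-fold, with 11 false calls. Both were scored by the adjusted p alone, without the fold and FPKM cutoffs, so they do not give the error rate of the calls above. Only 100 genes were changed at each fold, while 8538 of 22822 genes tested had an adjusted p under 0.05 in the late 2-cell A-485 libraries themselves. The adjustment depends on the share of changed genes, so the recovered numbers do not give the sensitivity of the tests above. Counts varied between the 2 libraries of a group by a chi-square per degree of freedom of 10.1 to 21.9, which is above counting error alone. Whether more libraries or more depth would have raised precision was not tested, and some members had very low counts.

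Members and lists of genes were chosen with earlier results of these data known. Named with values were up to 10 called members per direction and comparison and a core set of cyclins, Cdks, Cdc20 and Cdc25 genes, and up to 3 genes per direction of the other lists. The comparison of the late 2-cell DMSO groups was added after seeing the data. Alternatives were DESeq2 1.42.0, other scalings, filters and cutoffs, all libraries in one fit, a replicate block and leaving out libraries. CUT&RUN data were not analysed here. Sequences are from RefSeq.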

Additional observations from a re-analysis of the deposited data

Results flagged for a closer look

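The results listed here passed a test of the difference between 2 effects (edgeR quasi-likelihood test of the interaction, Benjamini-Hochberg adjusted over all genes tested). No explanation was tested for any of them, and groups of 2 libraries are too small to single out a library.

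The effect of A-485 differed between late and early 2-cell for 18 members. As late minus early differences of log2 fold changes, the values were higher for Ccnd2 (8.59), Ccnd1 (2.57), Cdc42ep4 (1.71), Cdk5r1 (1.51) and Cdc14a (1.3). The Ccnd2 value rests on 1 count per DMSO-treated late 2-cell library and depends on the prior count. They were lower for the replication and mitotic genes Cdc45 (-2.72), Cdc20 (-2.70), Ccnb1 (-1.55), Cdc14b (-1.52), Cdc23 (-1.35), Cdk1 (-1.21) and Ccna2 (-1.07). They were also lower for the transcription kinases Cdk11b (-2.67), Cdk9 (-1.94), Cdk19 (-1.35) and Cdk12 (-1.17), and for Cdk2ap1 (-1.88) and Cdc37 (-1.75). Leaving out a single library ended 5 of these calls. The adjusted p of Cdc14a was 0.0514 to 0.159 without any one of 6 libraries (both late 2-cell DMSO, both early 2-cell A-485, the second late 2-cell A-485 and the second early 2-cell DMSO). It was 0.0507 to 0.0861 for Cdc42ep4 without the first late or early DMSO or the second early A-485 library, and 0.0566 to 0.0726 for Cdk5r1 without either late DMSO, the first early DMSO or the second early A-485 library. It was 0.1 and 0.0921 for Cdc23 without the first early A-485 or the second early DMSO library, and 0.133 and 0.0916 for Cdk19 without the second early A-485 or the first early DMSO library. With library totals in place of TMM the adjusted p was 0.0502 for Cdc23 and 0.0534 for Cdk19, and with mitochondrial scaling Cdc14a, Cdc42ep4 and Cdk5r1 were not called.

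The effects of A-485 and TSA at late 2-cell differed for 15 members. As A-485 minus TSA differences of log2 fold changes, the value was higher for Ccnb1ip1 (2.03). It was lower for the Cdc42 partners Cdc42ep1 (-4.87), Cdc42ep4 (-4.09), Cdc42ep3 (-3.51), Cdc42ep2 (-2.82) and Cdc42bpg (-2.12), for the cyclins Ccnb3 (-2.34) and Ccne1 (-1.88), and for Cdc20 (-1.76), Cdc45 (-1.73), Cdk2 (-1.56), Cdk11b (-1.33), Cdk2ap1 (-1.24), Cdc37 (-1.11) and Cdc25c (-1.09). The adjusted p of Cdc42bpg was 0.0794 without the second TSA and 0.0689 without the first DMSO library of the TSA experiment, and that of Cdc42ep3 was 0.0614 without the first DMSO library of the A-485 experiment. The difference of Cdc25c was -0.78 without the second A-485 library, just short of the cutoff without the second TSA library and -0.96 in DESeq2.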

How the results depend on the processing

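No member named changed the sign of a called value under any alternative. Of 1453 values of named members under alternatives other than leaving out a library, 1405 stayed on their side of the threshold, 19 lost and 29 gained a call, and of 1002 with a library left out 962 stayed, 36 lost and 4 gained one. Scaling to mitochondrial mRNA moved the counts most: members up-regulated by A-485 at late 2-cell went from 5 to 1 and down-regulated from 21 to 39, members down-regulated from zygote to early 2-cell from 20 to 43, members whose A-485 effect differed between stages from 18 to 37, and members that differed between A-485 and TSA from 15 to 24. Without the fold cutoff, members up-regulated by A-485 at late 2-cell numbered 8, down-regulated by TSA 36, up-regulated from zygote to early 2-cell 16 and down-regulated from early to late 2-cell 17. The cause was not tested. Leaving out single libraries gave 3 to 5 members up-regulated by A-485 at late 2-cell. The replicate numbers did not pair the libraries (correlations of the differences between replicates from -0.046 to 0.12), and with a replicate block 23 members instead of 21 were down-regulated by A-485 at late 2-cell, 23 instead of 22 by TSA, and the other counts of up- and down-regulated members were the same. With 2 libraries a group, changes near 2-fold may be missed, so a member that was not called may have changed.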
